A study of Homo sapiens with 12 samples.

Results

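CD24 was examined on Illumina expression arrays of BE(2)-C cells, a human neuroblastoma cell line, after forced expression of the transcription factor GRHL1. All probes that the platform annotation assigns to the symbol CD24 were taken, which gave 2 of the 47323 probes on the array, ILMN_2060413 and ILMN_1805519, for this 1 of 20046 genes that the annotation names. The gene was chosen for its rise with the GRHL1 plasmid, so its difference between the plasmids is given as a description without a test. Cells received 2 µg of pTRex-GRHL1 or 2 µg of the empty vector pTRex-Dest30 with the reagent Effectene, and total RNA was taken at 24, 48 and 72 h. There were 6 groups of 2 arrays each, GRHL1 at 24, 48 and 72 h and empty vector at 24, 48 and 72 h, 12 arrays in all. All cells were cultured in the same serum-containing DMEM. The labels used here do not state what share of cells took up the plasmid, and a bulk array cannot tell more CD24 RNA in each cell from more cells that hold it. The labels do not say whether arrays of a group came from separate cultures, so each p-value covers no more than the spread between these arrays.

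CD24 encodes a very short, heavily glycosylated protein that a glycosylphosphatidylinositol (GPI) anchor holds in the outer leaf of the plasma membrane. Its sialylated mucin-type sugars are bound by P-selectin on platelets and endothelium and by the inhibitory receptor Siglec-10 on macrophages, where the contact restrains phagocytosis. In the nervous system CD24 is found on immature neurons and interacts with the adhesion molecules L1CAM and contactin 2, and it is widely used as a surface marker of progenitor, epithelial and tumour cells. GRHL1 belongs to the grainyhead-like factors, which bind the palindromic letters AACCGGTT and are best known for activating epithelial genes.

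CD24 (Entrez gene 100133941) lies on the minus strand of chromosome 6, from 106969831 to 106976855, in the RefSeq table of assembly GRCh38.p14. The same table lists 5 CD24 pseudogenes on 5 chromosomes. Processed copies of a gene can be close in sequence, and 0 probes of the array are named for them. Neither the probe sequences nor their places in the transcript were used here, so a share of signal from such copies was not tested. RefSeq places 3 promoter windows at CD24, each of 250 bases before and 50 bases after a transcript start. The stretch before the start at 106975627, chr6:106975628-106975877 on the minus strand, is shown because it is the DNA next to an annotated start of the gene that responded to the grainyhead plasmid, and no letters are in capitals because the full motif was not found in it.
CD24 before start: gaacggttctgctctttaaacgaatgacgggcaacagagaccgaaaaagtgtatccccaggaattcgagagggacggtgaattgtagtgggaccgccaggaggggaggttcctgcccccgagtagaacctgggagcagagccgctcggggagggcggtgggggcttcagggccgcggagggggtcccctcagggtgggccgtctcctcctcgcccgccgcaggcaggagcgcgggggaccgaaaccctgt
On either strand AACCGGTT was in 0 of the 3 CD24 windows and in 0.134% of all 35116 windows of the table. The looser form AACNNGTT, which includes the full motif, was also in 0 of 3 and in 3.52% of all windows. The shorter CCGGTT, contained in the full motif, was in 1 of 3 and in 7.23% of all windows. It began at base 16 of the transcript that starts at 106974039, in chr6:106974007-106974036 on the minus strand, with the match in capitals.
CD24 short match: tttaaacaaaccCCGGTTccgggctgaagc
These letters describe the windows only, and binding was not measured.

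Before the values, the names of the arrays need a remark. The deposited scanner table and the deposited normalized table give different sample names to 7 of 12 arrays, all at 48 and 72 h. The normalized table's names were used, because with them the plasmid gene ran with the labels, so its values are no separate support for the names. On probe ILMN_1651286, GRHL1 read 9110.7 and 12963.9 intensity units at 24 h, 6225.3 and 4669.2 at 48 h and 5968.3 and 5458.5 at 72 h in GRHL1-transfected cells, against 92.3 to 122.8 on the 6 empty vector arrays. The other GRHL1 probes showed no such signal: ILMN_1769934 had group means between 120.8 and 127.9 units and ILMN_1795767 between 96.9 and 113.7, each with 1 detected array among 12. The 24 h arrays carry the same names in both tables, so the 24 h values of CD24 do not rest on this choice. The arrays detected between 17950 and 19427 probes. Of 14 adrenergic neuroblastoma markers, 13 were on the array and all 13 were detected on every array. Their summed intensity was 78460 to 80932 in GRHL1 cells and 80014 to 83481 in empty vector cells.

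CD24 was already expressed without the plasmid. Probe ILMN_2060413 was detected on all 12 arrays, and in empty vector cells it read 781.3 and 938.9 units at 24 h, 787.1 and 787.8 at 48 h, and 936.7 and 965.9 at 72 h, well above the detection limit of 128.4 units. In order, the group means were 951.3 ± 20.6 at 72 h, 860.1 ± 111.4 at 24 h and 787.5 ± 0.5 at 48 h (SD, n = 2 each). No neighbours in that order differed beyond their spread in limma. The log2 change in empty vector cells was -0.13 ± 0.14 SE at 48 h against 24 h (95% interval -0.44 to 0.18, adjusted p = 0.794), 0.17 ± 0.14 at 72 h against 24 h (-0.14 to 0.47, adjusted p = 0.709) and 0.30 ± 0.14 at 72 h against 48 h (-0.01 to 0.60, adjusted p = 0.961). None of these changes passed the threshold, and the intervals still allow a shift of up to 0.60 on the log2 scale. Over all genes tested 0.00811% were called at 48 h against 24 h, 0.0568% at 72 h against 24 h and 0% at 72 h against 48 h.

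With the GRHL1 plasmid, every array read higher. At 24 h probe ILMN_2060413 read 1653.1 and 1742.5 units in GRHL1 cells, against 781.3 and 938.9 in empty vector cells. At 48 h it read 3340.4 and 2750.1 in GRHL1 cells, against 787.1 and 787.8 in empty vector cells. At 72 h it read 3137.6 and 2654.8 in GRHL1 cells, against 936.7 and 965.9 in empty vector cells. The lowest GRHL1 array stood 1.71 times above the highest empty vector array, and the groups did not overlap at any time. Such a full separation of 6 arrays from 6 was seen in 1.43% of the genes tested, and a separation of the 2 arrays from 2 of a single time in 22.1% at 24 h, 17.1% at 48 h and 16.6% at 72 h. Since CD24 was picked from this contrast, nothing is read from these shares.

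In normalized intensity the GRHL1 to empty vector ratio of geometric means was 1.98 at 24 h, 3.85 at 48 h and 3.03 at 72 h, and 2.85 over all arrays. On the log2 scale, after background correction with an added offset of 16 units, the difference was 1.05 ± 0.14 SE at 24 h, 2.04 ± 0.14 at 48 h and 1.67 ± 0.14 at 72 h (2 arrays against 2 each), and 1.59 ± 0.08 as the mean of the 3 times. By size of that mean difference CD24 came 12th of 12323 genes, and by time it came 31st at 24 h, 7th at 48 h and 13th at 72 h, ranks that describe the choice of the gene. Leaving out 1 array moved the mean difference to between 1.54 and 1.63. Under the scanner table's names the 24 h difference would be unaltered at 1.05, while that at 48 h would turn to -0.81, that at 72 h to -0.72 and the mean to -0.16.

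**Figure D1:**
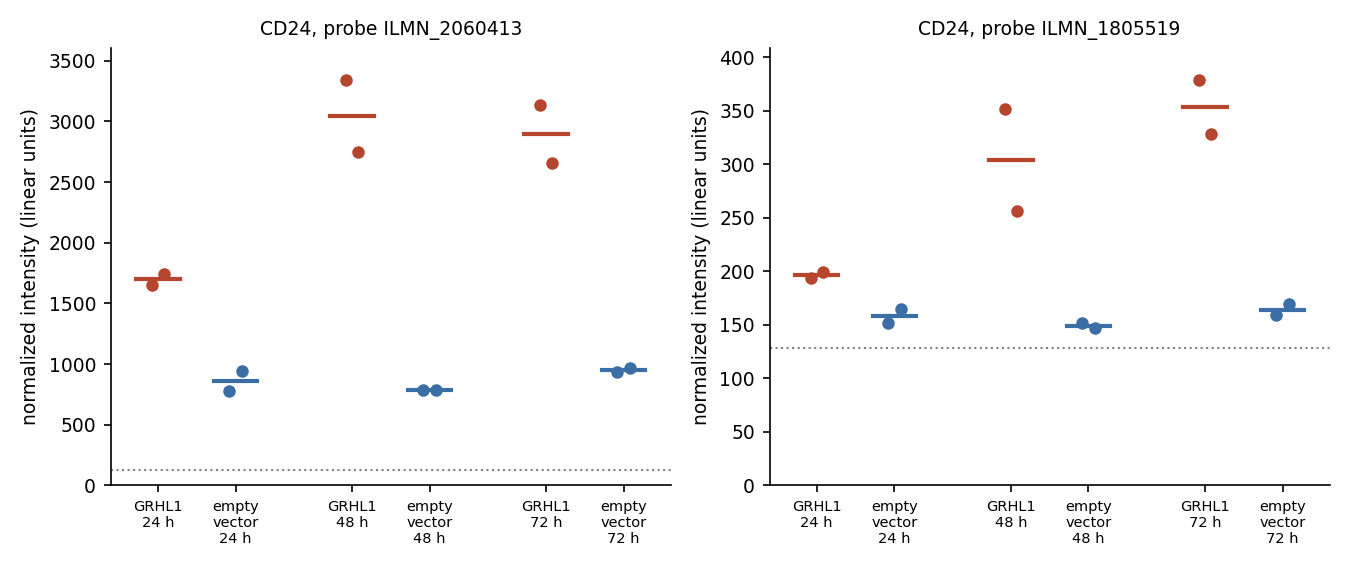
Normalized intensity (linear units, from 0) of both CD24 probes on each of the 12 arrays, with GRHL1 (red) left of empty vector (blue) at 24, 48 and 72 h. Points are arrays, short bars are means of 2 arrays and the dotted line is the detection limit of 128.4 units. At both probes every GRHL1 array lies above the empty vector arrays, and the GRHL1 arrays of 48 and 72 h lie above those of 24 h.

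The second probe showed the same direction at a far dimmer signal. ILMN_1805519 was detected on all 12 arrays but read close to the limit. In GRHL1 cells it gave 193.6 and 199.9 units at 24 h, 351.4 and 256.8 at 48 h and 378.8 and 328.3 at 72 h. In empty vector cells it gave 151.8 and 164.8 at 24 h, 151.7 and 147.2 at 48 h and 158.9 and 169.5 at 72 h. Again no array of the GRHL1 groups fell into the range of the empty vector groups. Its log2 difference was 0.53 ± 0.18 SE at 24 h, 1.48 ± 0.18 at 48 h and 1.55 ± 0.18 at 72 h, with a mean of 1.19 ± 0.10. The ratios of normalized intensity, which still contain the background, were 1.24, 2.01 and 2.15 at the 3 times.

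The probes differed in the size of the response. The log2 difference of ILMN_1805519 lay below that of ILMN_2060413 at 24 and 48 h, and close to it at 72 h. Within each array the log2 ratio of ILMN_2060413 over ILMN_1805519 ran from 3.30 to 3.83 with a median of 3.59 on the 6 GRHL1 arrays, against 3.08 to 3.23 with a median of 3.14 on the 6 empty vector arrays. The ratios did not overlap between the plasmids, so the 2 probes changed unequally on this scale. The offset lowers differences of dim probes. Its part in the gap between the probes, and that of transcript forms, was not tested.

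The difference in CD24 was smallest at 24 h at both probes. From 24 to 48 h the log2 difference grew by 0.99 ± 0.19 SE at ILMN_2060413 (95% interval 0.56 to 1.42, limma adjusted p = 0.619) and by 0.96 ± 0.25 at ILMN_1805519 (0.39 to 1.52, adjusted p = 0.751). From 24 to 72 h it grew by 0.62 ± 0.19 (0.19 to 1.06, adjusted p = 0.703) and by 1.02 ± 0.25 (0.46 to 1.58, adjusted p = 0.683) at the same probes. From 48 to 72 h the probes went opposite ways, by -0.37 ± 0.19 (-0.80 to 0.07, adjusted p = 1) and 0.06 ± 0.25 (-0.50 to 0.63, adjusted p = 1). No step passed the threshold over 12323 genes. Of these, 0.00811% were called for each step from 24 h and 0% for the step from 48 to 72 h. For the step from 24 to 48 h ILMN_2060413 had the 9th smallest p of all genes. These steps, and the F test of them, are formed from the plasmid differences for which CD24 was chosen, so this rank is a description.

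The F test of any change of the difference with time gave adjusted p = 0.732 at ILMN_2060413 (F = 13.35, unadjusted p = 0.00163) and 0.739 at ILMN_1805519 (F = 10.24, unadjusted p = 0.00405). By this test 1 gene (0.00811% of those tested) changed with time. The call for CD24 depended on the variance model and, for the step from 24 to 48 h, also on the background correction. With a variance trend and robust estimates the F test gave adjusted p = 0.00945 and the step from 24 to 48 h adjusted p = 0.00218. Without background correction that step gave adjusted p = 0.0365 in limma.

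Set within GRHL1 cells alone, the CD24 level at ILMN_2060413 was 0.86 ± 0.14 SE higher on the log2 scale at 48 h than at 24 h (95% interval 0.56 to 1.17, adjusted p = 0.0623) and 0.79 ± 0.14 higher at 72 h than at 24 h (0.48 to 1.10, adjusted p = 0.0757). The change from 48 to 72 h was -0.07 ± 0.14 (-0.38 to 0.23, adjusted p = 0.944). ILMN_1805519 gave 0.84 ± 0.18 at 48 h (adjusted p = 0.142), and its level was 1.14 ± 0.18 higher at 72 h than at 24 h (adjusted p = 0.0439). CD24 was chosen for its height on these same GRHL1 arrays, so the p-values of these changes are a description. Calls over all genes were 0.0974% at 48 h and 0.211% at 72 h against 24 h, and 0% at 72 h against 48 h. At ILMN_2060413 both later times passed with an offset of 50 units (adjusted p = 0.0102 and 0.0142), without background correction, with only genes detected on all 12 arrays, and with the variance trend. Neither passed with quantile normalization, the scanner table, all detected probes or a replicate block. Nor did they pass without a detection filter (adjusted p = 0.217 and 0.25 in limma) or with only the groups compared (0.326 and 0.319). The call thus depended on the setting.

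GRHL1 itself, at probe ILMN_1651286, ran the other way. It averaged 11037.3 ± 2724.6 units at 24 h, 5447.3 ± 1100.3 at 48 h and 5713.4 ± 360.5 at 72 h in GRHL1 cells (SD, n = 2 each). Over the same times CD24 averaged 1697.8 ± 63.2, 3045.3 ± 417.4 and 2896.2 ± 341.3 units at ILMN_2060413. The arrays with the most GRHL1 signal, those of 24 h, were thus the GRHL1 arrays with the least CD24 signal.

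**Figure D2:**
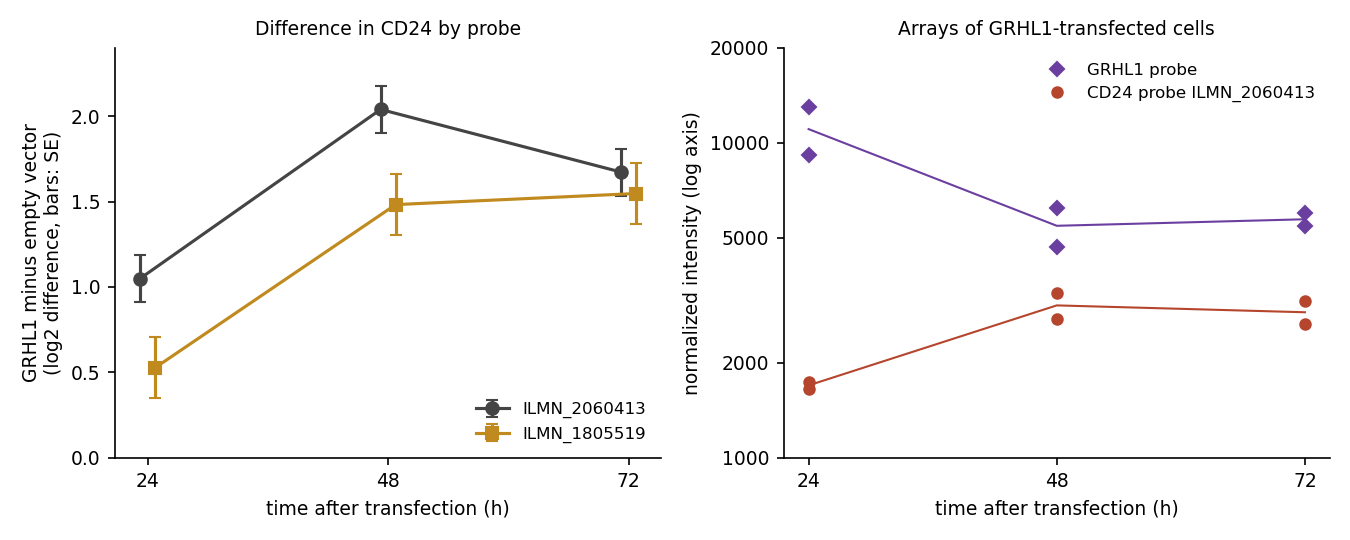
Left, GRHL1 minus empty vector difference in CD24 (log2, bars are limma SE, 2 arrays against 2) by hours after transfection for both probes; right, normalized intensity (log axis) of GRHL1 probe ILMN_1651286 and of CD24 probe ILMN_2060413 on the 6 GRHL1 arrays, with lines through the means. At ILMN_2060413 the difference is 1.05 at 24 h and 2.04 at 48 h, while the signal of that GRHL1 probe is highest at 24 h.

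Genes around CD24 were followed in 7 lists. Together 132 of their genes besides GRHL1 were tested, of which 6 rose and 1 fell in the mean of the 3 times (limma, adjusted p under 0.05), with a median log2 difference of 0.01. OVOL2, 1 of the 6, passed the detection filter only through the GRHL1 arrays and so had to differ. Over all genes 1.53% rose and 0.179% fell, with a median of -0.01. At an unadjusted p under 0.05 in limma 14 of the 132 were higher and 8 lower, against 804 higher and 705 lower of all 12323 genes, which is the background for the same counts in each list. The 14 include OVOL2 and also ITGA3, which likewise passed the detection filter only through GRHL1 arrays.

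Among surface partners of CD24, 10 of 14 given genes were tested, 0 rose and 1 fell in limma (1 and 1 at an unadjusted p under 0.05), with a median of -0.02. CNTN1, the GPI-anchored neural adhesion molecule contactin 1, read 457.5 to 540.6 units (median 503.9) in GRHL1 cells and 571.7 to 778.7 (median 610.2) in empty vector cells. It fell, with a log2 difference of -0.37 ± 0.08 SE (adjusted p = 0.0449) and -0.31 from a second probe, and the call was lost in 10 of 12 fits that left out an array. ITGA3, the integrin alpha 3 chain, stood at 0.48 ± 0.16, detected on 3 of 6 GRHL1 arrays and 0 of 6 empty vector arrays. It passed the detection filter only through GRHL1 arrays, which favours a higher value there. It is the 1 gene counted as higher in this list, so that count is a description. The receptors SIGLEC10 and SELP and the partner CNTN2 were on the array but not detected on enough arrays to be tested.

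Genes that build the anchor and sugars of such proteins, or carry their signal, gave no call in limma. Of 28 GPI anchor synthesis genes tested 0 rose and 0 fell (1 higher and 1 lower at an unadjusted p under 0.05), with differences from -0.13 to 0.25. The smallest p values were those of PGAP3, which remodels the anchor's lipid (0.25 ± 0.09, adjusted p = 0.28), and PIGY, a subunit of the enzyme for the first step (-0.13 ± 0.05, adjusted p = 0.342). Of 32 genes for mucin-type O-glycans and sialylation 0 rose and 0 fell (1 higher and 2 lower at an unadjusted p under 0.05), with a median of 0.04. The sialyltransferase ST6GALNAC2, detected on 5 of 6 GRHL1 arrays and 1 of 6 empty vector arrays and so read mostly against background, stood at 0.48 ± 0.12 (adjusted p = 0.108), and ST6GALNAC6 -0.24 ± 0.07 (adjusted p = 0.165). Of 13 raft signalling genes, the kinases and scaffolds through which GPI-anchored proteins are thought to signal, 0 rose and 0 fell (2 higher and 0 lower at an unadjusted p under 0.05), with SRC at 0.30 ± 0.09 (adjusted p = 0.146) and CSK, the kinase that restrains it, at 0.13 ± 0.06 (adjusted p = 0.403).

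Of 27 other GPI-anchored proteins tested, 1 rose and 0 fell in limma (3 higher and 2 lower at an unadjusted p under 0.05), with a median of -0.02. The rise was in EFNA1, ephrin A1, a membrane-bound ligand of Eph receptors. It read 218.8 to 310.8 units (median 247.9) in GRHL1 cells and 147.5 to 161.1 (median 157.2) in empty vector cells, without overlap. Its log2 difference was 1.07 ± 0.10 SE (adjusted p = 0.000335), and 1.32, 0.92 and 0.96 at 24, 48 and 72 h, with 0.55 from a second probe detected on 4 arrays. RGMA, a repulsive guidance molecule, stood at 0.34 ± 0.09 (adjusted p = 0.128).

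Among stem, progenitor and phagocyte-signal surface markers 2 of 13 tested rose and 0 fell in limma (3 higher and 1 lower at an unadjusted p under 0.05), with a median of 0.06. ENG, the TGF-beta co-receptor endoglin, read 144.8 to 165.3 units (median 153.5) in GRHL1 cells and 109.1 to 141.8 (median 126.6) in empty vector cells, where it was detected on 4 of 6 arrays. Its log2 difference was 0.63 ± 0.08 (adjusted p = 0.00314), with 1.02, 0.59 and 0.27 at 24, 48 and 72 h. The tetraspanin CD9 read 467.2 to 780.1 (median 570.6) in GRHL1 cells and 337.8 to 459.3 (median 389.3) in empty vector cells. It rose by 0.65 ± 0.10 (adjusted p = 0.00794), but a second CD9 probe, detected on all 12 arrays, gave -0.06, so its rise depends on the probe.

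In the list of CD24-linked and epithelial regulators, 4 of 11 tested rose and 0 fell in limma (4 higher and 1 lower at an unadjusted p under 0.05). Over all genes 1.53% rose and 0.179% fell. Among the 4 were GRHL1, which came from the plasmid, and OVOL2, which passed the filter only through GRHL1 arrays, so both had to differ. The list was chosen with earlier results of these data known, so its count is a description. NDRG2, whose product has been reported to lower CD24 in carcinoma cells, read 301.8 to 538.7 units (median 355.7) in GRHL1 cells and 223.3 to 281.9 (median 243.5) in empty vector cells. It rose by 0.74 ± 0.12 (adjusted p = 0.0158), with 0.30 from a second probe. The receptor gene ERBB3 rose by 0.84 ± 0.08 (adjusted p = 0.00044), with 0.45 from a second probe. OVOL2, an epithelial repressor, was detected on 6 of 6 GRHL1 arrays and 0 of 6 empty vector arrays, and it was at least 1.07-fold higher in GRHL1 cells. By size, CD24 at 1.59 lay above the fitted value of each called gene of these lists other than GRHL1, a comparison that the choice of CD24 favours.

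**Figure D3:**
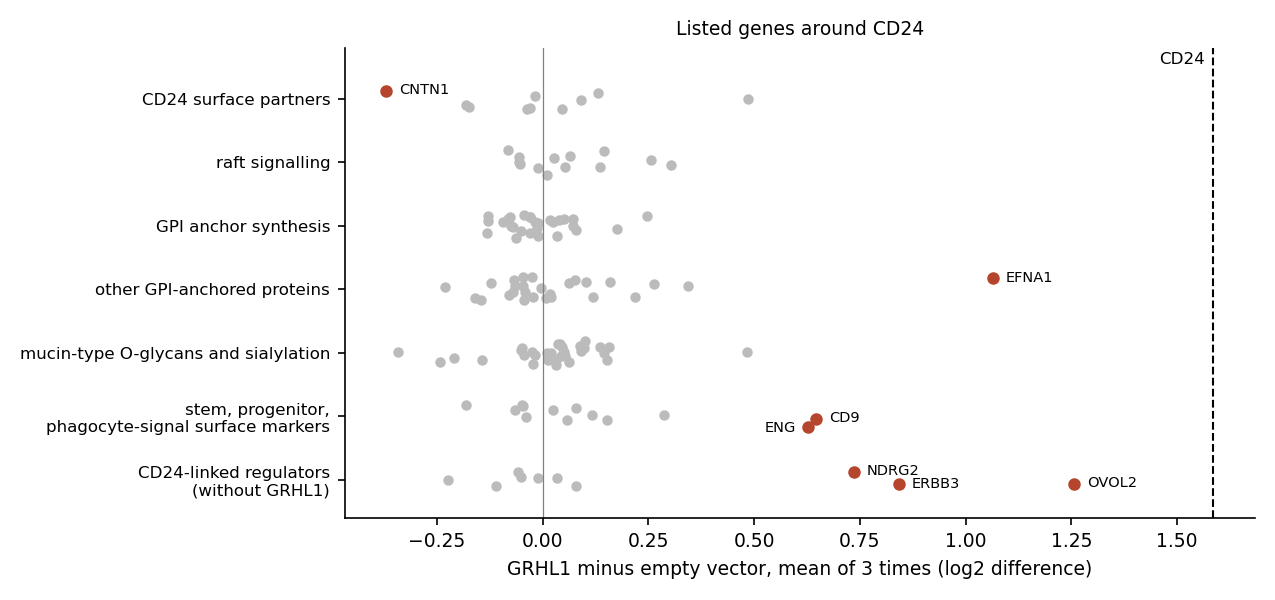
GRHL1 minus empty vector difference (log2, mean of 3 times) of the tested genes of 7 lists around CD24, without GRHL1, with called genes in red and named, others in grey, and the vertical spread within a list only for legibility. Of 132 genes 6 rose, OVOL2 among them, and 1 fell, and the dashed line marks CD24 at 1.59, to the right of all of them.

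Markers of other cell types were also read, and many of the epithelial and leukocyte ones were not detected. Of 11 epithelial markers on the array 1 was detected on all 12 arrays and 5 on none, among them CDH1, KRT5 and KRT14, and their summed intensity was 1312 to 1375 in GRHL1 cells and 1259 to 1402 in empty vector cells. KRT19 stood at -0.14 ± 0.09 (adjusted p = 0.557) and EPCAM at 0.15 ± 0.12 (adjusted p = 0.701). Of 8 B cell and leukocyte markers on the array, 1 was detected on all 12 arrays and 4 on none, PTPRC and CD74 among these 4. The sums of the list were 929 to 1047 in GRHL1 cells and 922 to 1005 in empty vector cells. MS4A1 stood at 0.12 ± 0.07 (adjusted p = 0.548) and CD79A at 0.23 ± 0.15 (adjusted p = 0.603). Of 7 fibroblast markers 3 were detected on all 12 arrays, with sums of 2039 to 2580 in GRHL1 cells and 2261 to 2979 in empty vector cells, PDGFRB at -0.26 ± 0.06 (adjusted p = 0.0981) and LUM at -0.26 ± 0.12 (adjusted p = 0.445). The sums of the 3 lists overlapped between the plasmids. They add intensity that still contains the background, and only 4 of 11 epithelial and 3 of 8 leukocyte members were detected on 2 or more arrays. The sums of those lists thus hold mostly undetected members, so their overlap cannot tell whether such cells differed. The part of such cells in CD24 was not tested. Of the adrenergic markers 0 of 13 tested rose and 1 fell in limma (2 higher and 1 lower at an unadjusted p under 0.05). Over all genes tested, 1.53% rose and 0.179% fell. The fall was in the neurofilament gene NEFM (-0.38 ± 0.05, adjusted p = 0.00329), while ELAVL4, a neuronal RNA-binding protein gene, stood at 0.24 ± 0.08 (adjusted p = 0.255).

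Genes with a pattern like that of CD24 were found by 2 measures among the 12322 others. The highest Pearson correlations with ILMN_2060413 over the 12 arrays, which share the 6 plasmid and time groups, were those of AIF1L, an actin-binding protein (r = 0.985), RAB31, a small GTPase of vesicle traffic (0.977), ANXA5, the phospholipid-binding annexin A5 (0.977), NPC2, a lysosomal cholesterol carrier (0.977), and SLC31A2, a copper transporter (0.966). Their sizes differed widely, from 0.36, 0.52 and 0.53 for ANXA5 at 24, 48 and 72 h to 1.52, 3.09 and 3.30 for AIF1L. AIF1L was the gene whose difference changed with time in the F test. By distance between the 3 log2 differences the nearest were TMEM54, a membrane protein gene (distance 0.537), ACP3, prostatic acid phosphatase (0.574), NDRG1, a stress-responsive gene (0.629), MGP, the calcification inhibitor matrix Gla protein (0.678), and OVOL2 (0.761). TMEM54, ACP3 and OVOL2 were detected on 0 of 6 empty vector arrays, so their fitted differences are read against background, and bounds were at least 1.71-fold for TMEM54, 1.57-fold for ACP3 and 1.07-fold for OVOL2. MGP, bright on all arrays, gave 1.32, 2.17 and 2.28, and like ILMN_1805519 it had its largest difference at 72 h. A second MGP probe gave a mean difference of 2.19, against 1.92 at the probe used.

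**Figure D4:**
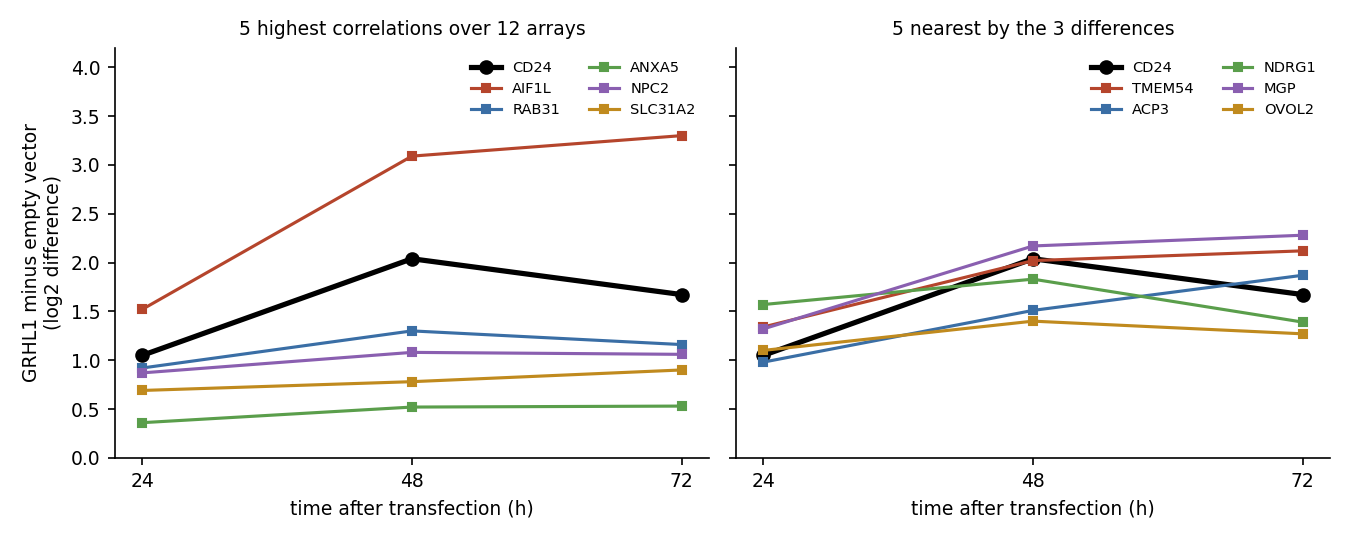
GRHL1 minus empty vector difference (log2) at 24, 48 and 72 h for CD24 at ILMN_2060413 (black) and, left, the 5 genes with the highest correlation over 12 arrays and, right, the 5 genes with the nearest 3 differences. At 24 h the differences of the correlated genes run from 0.36 for ANXA5 to 1.52 for AIF1L.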

How the data were processed

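Total RNA was labelled with biotin and hybridised to Illumina BeadChips, per the labels' protocols. Deposited were a scanner table of linear intensity values, paired per the file headers with detection p-values, and a table of intensity that the authors had normalized by a method the labels do not name. The median intensity of an array was 119.7 to 121 units once normalized, against 108.2 to 128.7 units before. Scanner columns were matched to normalized columns by rank correlation (at least 0.999974, next best at most 0.8757), and the names of 7 columns conflicted. A probe counted as detected at p under 0.01 with a signal above the median of probes with p above 0.9. The detection limit was the 95th percentile of undetected values. Normalized intensity was corrected with limma's normexp (offset 16) and put on the log2 scale, and 1 missing value took its probe's median. Probes naming 1 gene and detected on at least 2 arrays were kept (16501), with the brightest for each of 12323 genes.

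Differences came from limma (lmFit on 6 group means, then eBayes, 6 residual and 3.72 prior degrees of freedom), and p was adjusted over all genes by Benjamini-Hochberg with a threshold of 0.05. SE and 95% intervals are limma's moderated ones. A lower bound of a fold is the mean log2 intensity of the brighter group against the detection limit. The members and lists were chosen with earlier results of these data known. Named were both CD24 probes, GRHL1, the 5 most alike genes by each of 2 measures, and in each list up to 4 called genes or, with fewer than 2 called, those with the 2 smallest p. Other genes are named as background or as undetected members, or follow from a result. Alternatives covered background, offset, scaling, filter, probes, source table, variance model, replicate block, single arrays left out and the groups fitted. Same-numbered arrays of a time had deviations from the group mean that correlated with r = 0.115, 0.017 and 0.03, so the numbers were not taken as pairs. The fits were tested on simulated data. Tools were R 4.3.3, limma 3.58.1, Python 3.11.15, pandas 2.3.3, numpy 2.4.6 and matplotlib 3.10.9.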

Additional observations from a re-analysis of the deposited data

How the results depend on the processing

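The CD24 difference kept its sign at every time in all alternatives that used the normalized table's names. Probe ILMN_1805519 gave 0.53 at 24 h, 1.48 at 48 h, 1.19 as the mean and 0.06 for the change from 48 to 72 h, where ILMN_2060413 gave -0.37. At ILMN_2060413 changes over time in CD24 passed the threshold in some settings, given next, and not in the main fit or the other alternatives. Without background correction the difference grew by 0.96 from 24 to 48 h, and the GRHL1 level by 0.84 at 48 h and 0.77 at 72 h against 24 h. An offset of 50 gave 0.85 and 0.78 for these levels, only genes detected on all 12 arrays 0.86 and 0.79, and a variance trend with robust estimates 0.86 and 0.79, a growth of 0.99 and F = 21.70. With the replicate number as a block no CD24 call was altered (mean difference 1.59, F = 15.22), and 7 listed genes rose. Listed falls dropped to 0 without a detection filter and with all detected probes. With the scanner table's names, an alternative added after seeing the data, the difference was -0.81 at 48 h, -0.72 at 72 h and -0.16 as the mean, its change -1.86 from 24 to 48 h, -1.76 from 24 to 72 h and 0.09 from 48 to 72 h. The empty vector level then changed by 0.82 from 24 to 48 h, 1.84 from 24 to 72 h and 1.02 from 48 to 72 h, the GRHL1 level by -1.04 from 24 to 48 h, 0.07 from 24 to 72 h and 1.11 from 48 to 72 h, and 0 listed genes rose and 0 fell. Fits that each left out 1 array gave 0.90 to 1.19 for the difference at 24 h, 1.90 to 2.18 at 48 h, -0.27 to 0.02 for the empty vector level from 24 to 48 h and 0.02 to 0.31 from 24 to 72 h, -0.51 to -0.22 for the change of the difference from 48 to 72 h, -0.22 to 0.07 for the GRHL1 level from 48 to 72 h, and 0 to 1 listed falls. Except for the construction of each setting, the cause was not tested. ILMN_1805519 lay at 1.15 to 1.32 times the detection limit in empty vector cells, which limits the precision of its differences, as does the number of arrays.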

Other observations

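In normalized intensity, within each time, the GRHL1 array with the higher GRHL1 signal also had the higher CD24 signal at both probes. At 24 h replicate 2 had 12963.9 units of GRHL1 and 1742.5 of CD24 at ILMN_2060413, and replicate 1 had 9110.7 and 1653.1. At 48 h replicate 1 had 6225.3 and 3340.4, and replicate 2 had 4669.2 and 2750.1. At 72 h replicate 1 had 5968.3 and 3137.6, and replicate 2 had 5458.5 and 2654.8. Across the times the order was the opposite, with the most GRHL1 and the least CD24 at 24 h. In scanner intensity, before normalization, the CD24 order within a time was kept at 24 and 48 h but reversed at 72 h. There replicate 1 read 2698.0 and replicate 2 read 2794.0 at ILMN_2060413, and 325.4 and 348.4 at ILMN_1805519. The order at 72 h thus depends on the scaling of the arrays. How many other genes share the order was not counted, and with 3 pairs of arrays no test was made.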
